A study of Arabidopsis thaliana with 12 samples.

Results

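Genes of flavonoid and anthocyanin biosynthesis, 10 of the 33687 transcripts listed, were chosen by their gene identifiers and followed in Arabidopsis seedlings. They comprise 5 early steps, namely CHS (AT5G13930), CHI (AT3G55120), F3H (AT3G51240), F3'H (AT5G07990) and FLS1 (AT5G08640), and 3 late steps, DFR (AT5G42800), LDOX (AT4G22880) and UF3GT (AT5G54060). The glycosyltransferase UGT78D2 (AT5G17050) and the MYB regulator PAP1 (AT1G56650) complete the set. Poly(A) RNA had been sequenced from pooled whole seedlings of the Col-0 background, 10 days old, untreated, on vertical half-strength MS plates, with 3 libraries in each of 4 lines. The wild type (WT) carried no transgene. The line doa10a/b RNAi 4-2 is a single line that combines a T-DNA mutation of AtDOA10A, which encodes an endoplasmic reticulum ubiquitin ligase, with an RNAi construct against AtDOA10B. The line amiNAA10 expresses an artificial microRNA against NAA10, the catalytic subunit of the N-terminal acetyltransferase NatA, and the line labelled naa20 is a mutant of NAA20, the catalytic subunit of NatB.

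Flavonoids are made from phenylpropanoid precursors in a chain of enzymes. Early enzymes build the flavonoid skeleton and lead to flavonols, and late enzymes divert dihydroflavonols to the red and purple anthocyanins. Early genes respond mainly to the flavonol MYB factors MYB11, MYB12 and MYB111, whereas late genes are known targets of a complex of an R2R3 MYB such as PAP1, a bHLH protein such as TT8 and the WD40 protein TTG1. Seedlings accumulate anthocyanins under strong light, sugar or nutrient shortage.

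The values are normalized counts, that is read counts divided by a size factor of the library. The deposited tables give 1 mean per line, and the counts of the individual libraries were worked back from these means wherever only 1 set of whole numbers fitted. The libraries of a line are therefore called A, B and C, and these letters pair nothing between lines. In amiNAA10 and in the line labelled naa20 this was possible only for means up to 1000, so CHS, CHI, FLS1 and UGT78D2 in both, and DFR and LDOX in the line labelled naa20, have a mean without error. Recovered reads came to between 13238577 and 16836443 per library of WT and of the RNAi line, over transcripts with means up to 20000. The means summed to between 20338996 and 21639733 normalized counts per line.

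The targeted transcripts were examined first. AtDOA10A was at 943, 789 and 790 normalized counts in the RNAi line and at 2385, 2157 and 2273 in WT. AtDOA10B, the target of the RNAi construct, was at 496, 512 and 525 in the RNAi line and at 269 to 299 in WT, a rise that goes against its label, and reads of the construct cannot be told from those of the gene. NAA10 was at 108, 125 and 135 normalized counts in amiNAA10 and at 845 to 918 in WT. NAA20 was at 676, 692 and 672 in the libraries labelled naa20 and at 236 to 297 in WT, values that were normalized separately. Its transcript level thus does not show a loss of the gene, and read counts cannot tell an intact transcript from an altered one. Every direction given below for this line rests on the label. The shoot markers RBCS1A, RBCS2B, LHCB1.1, LHCB2.1 and PSBO1 and the 6 root markers were detected in every line, as in whole seedlings.

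The upstream sequences of CHS, DFR, LDOX, UF3GT and PAP1 are shown. The late genes and the regulator were taken because their means differed between lines, and CHS as an early gene whose mean stayed near WT. Each run is the 200 bases before the annotated start of the gene in RefSeq TAIR10.1, 5′ to 3′ on the strand of the gene. Capitals mark CACGTG, the G-box core, ACGT, the core it contains, and MYB words, namely ACCAAAC with its variant ACCAACC and the word ACCTAAC with its variant ACCTACC, all searched on both strands.
CHS, chr5:4488276-4488475, plus strand: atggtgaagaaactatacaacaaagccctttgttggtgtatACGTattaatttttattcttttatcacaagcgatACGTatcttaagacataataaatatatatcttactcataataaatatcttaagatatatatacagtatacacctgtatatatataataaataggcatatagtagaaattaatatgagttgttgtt
DFR, chr5:17166033-17166232, minus strand: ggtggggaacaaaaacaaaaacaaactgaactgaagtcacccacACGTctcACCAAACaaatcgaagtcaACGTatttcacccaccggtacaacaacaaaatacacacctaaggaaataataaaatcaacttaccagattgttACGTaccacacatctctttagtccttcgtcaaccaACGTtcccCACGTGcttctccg
LDOX, chr4:12006210-12006409, minus strand: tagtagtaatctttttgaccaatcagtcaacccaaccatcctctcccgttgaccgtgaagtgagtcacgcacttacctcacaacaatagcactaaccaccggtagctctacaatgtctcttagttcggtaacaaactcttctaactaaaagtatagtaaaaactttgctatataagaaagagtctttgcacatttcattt
UF3GT, chr5:21938397-21938596, minus strand: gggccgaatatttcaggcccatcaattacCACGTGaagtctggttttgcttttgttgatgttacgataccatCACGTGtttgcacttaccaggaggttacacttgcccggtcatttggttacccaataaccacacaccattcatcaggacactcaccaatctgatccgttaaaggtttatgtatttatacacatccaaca
PAP1, chr1:21235293-21235492, minus strand: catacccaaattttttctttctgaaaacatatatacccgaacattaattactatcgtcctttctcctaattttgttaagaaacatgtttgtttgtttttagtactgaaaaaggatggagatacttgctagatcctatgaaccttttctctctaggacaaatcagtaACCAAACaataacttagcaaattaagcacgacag
Within the 250 bases before the start, CACGTG was found in 4 of the 10 genes, namely CHS, F3H, DFR and UF3GT, and in 6.486% of 27443 promoters of protein-coding genes of the same length. UF3GT held 2 copies, beginning 171 and 128 bases before the start, and DFR held 1 at 14 bases, while the copy of CHS lies at 233 bases, outside the printed run. ACGT was found in 4 of 10 and in 44.077% of all promoters, and a MYB word in 3 of 10, FLS1, DFR and PAP1, and in 13.727% of all. LDOX held none of these words in its window.

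In WT, the order of transcript levels followed the pathway only in part. Per kilobase of exon, CHS, which makes the chalcone skeleton, stood highest at 8658 normalized counts. FLS1, the flavonol synthase, followed at 1850, and CHI, the chalcone isomerase, at 1443. UGT78D2, which glucosylates flavonols and anthocyanidins at the 3 position, was at 1245. DFR, the dihydroflavonol reductase, was at 524 and LDOX, the anthocyanidin synthase, at 486. PAP1 was at 151, F3'H, the flavonoid 3′-hydroxylase, at 148 and UF3GT, which adds xylose to anthocyanins, at 128 normalized counts per kilobase. The order of DFR and LDOX, and likewise that of PAP1, F3'H and UF3GT, changed between WT libraries, so they have no order. FLS1, CHI and UGT78D2 overlapped between WT libraries but kept their order within each. CHS lay above every other member in each library.

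F3H, the flavanone 3-hydroxylase needed for flavonols and anthocyanins alike, was listed at 0 in every line. F3H (AT3G51240) spans positions 19025192 to 19026872 of chromosome 3, and 93.83% of its 1508 exon bases lie within exons of AT3G51238, a non-coding RNA on the opposite strand, in RefSeq TAIR10.1. Among 391 genes that share at least 90% of their exon bases with another gene, 26.087% were listed at 0 in all lines, compared with 13.655% of 19494 genes that share none. The share was 2.833% of 6389 genes that share under 50% and 14.384% of 438 that share 50 to under 90%, so it did not climb steadily with the overlap. Whether the overlap bears on the 0 of F3H was not tested, no ratio can be given for it, and 9 of the 10 genes remain.

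**Figure D1:**
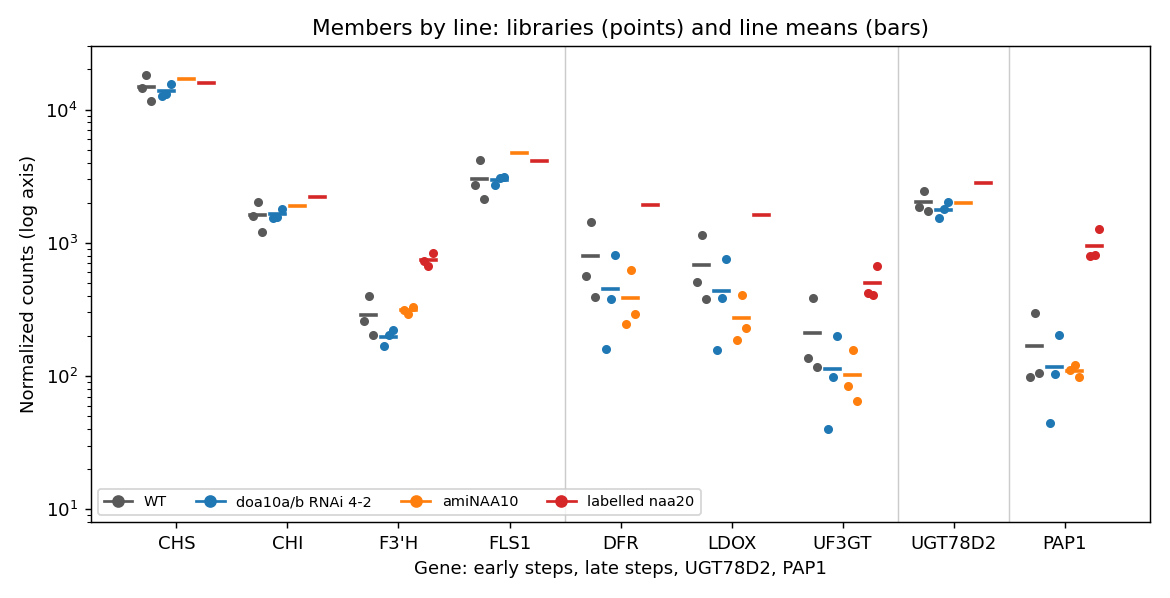
Normalized counts as deposited, on a log axis, of the 9 genes with reads in WT (grey), doa10a/b RNAi 4-2 (blue), amiNAA10 (orange) and the line labelled naa20 (red); points are recovered libraries, in the order A, B, C, and bars are line means. DFR, LDOX, UF3GT and PAP1 spread widely within WT and the RNAi line, whereas CHS stays between 11637 and 18142 in all 6 of their libraries.

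The late genes differed greatly between libraries of the same line. DFR was at 561, 1438 and 392 normalized counts in WT libraries A, B and C and at 159, 376 and 814 in those of the RNAi line. LDOX was at 509, 1151 and 380 in WT and at 157, 385 and 756 in the RNAi line. UF3GT was at 138, 382 and 116 in WT and at 39.9, 98.1 and 199 in the RNAi line. In each case WT library B was highest and RNAi library A lowest, and the libraries of both lines overlapped. PAP1 behaved likewise, with 98.7, 298 and 106 normalized counts in WT and 44.7, 103 and 203 in the RNAi line. The SD of log2 values between the 3 libraries was 0.97 for DFR in WT, where the median of 15067 transcripts with a mean of at least 100 was 0.10, and it ranked 9 of these transcripts. In the RNAi line DFR, UF3GT, LDOX and PAP1 ranked 5, 6, 7 and 8 of 14855 by this SD, with 1.18, 1.15, 1.14 and 1.08.

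The early genes spread less between the same libraries. CHS was at 14454, 18142 and 11637 normalized counts in WT and at 12550, 13059 and 15614 in the RNAi line, an SD of log2 values of 0.32 and 0.17. CHI was at 1581, 2030 and 1203 in WT and at 1536, 1572 and 1792 in the RNAi line. FLS1 was at 2701, 4145 and 2132 in WT and at 2693, 3069 and 3115 in the RNAi line. F3'H was at 258, 396 and 204 in WT and at 168, 202 and 223 in the RNAi line. WT library B was again highest and WT library C lowest among the WT libraries for all 4, but over a range of 1.56 to 1.94-fold, compared with 3.03 to 3.67-fold for the late genes. These 4 genes also ranked among the more variable transcripts of WT, between 126 and 541 of 15067.

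Over the 6 libraries of WT and the RNAi line, log2 levels of DFR ran in parallel with those of the other late genes. Pearson's r with LDOX was 0.997 (exact permutation p = 0.00278, adjusted 0.0111 over 8 relations) and Spearman's rho was 0.943 (exact permutation p = 0.0167, adjusted 0.0333). With UF3GT r was 0.995 (exact permutation p = 0.00139, adjusted 0.0111) and rho 1.0 (exact permutation p = 0.00278, adjusted 0.0222). With PAP1 r was 0.973 (exact permutation p = 0.00694, adjusted 0.0139), while rho was 0.829 (exact permutation p = 0.0583, adjusted 0.0667). UGT78D2 gave an r of 0.972 (exact permutation p = 0.00556, adjusted 0.0139) and a rho of 0.943 (exact permutation p = 0.0167, adjusted 0.0333). Without WT library B and RNAi library A, the 2 farthest from the median of DFR, r stood at 0.994 with LDOX, 0.978 with UF3GT, 0.827 with PAP1 and 0.969 with UGT78D2. Each line holds only 3 libraries, too few for a value within a line. The permutations of all 8 relations ignored the line, so a difference between the lines can enter their p-values. The relations were not planned and were added after the values per library were found.

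The relation was shallower for the early genes. For each unit of log2 DFR, LDOX moved by 0.91 and UF3GT by 0.99 on the log2 scale, PAP1 by 0.84, but UGT78D2 by only 0.21 and CHS by 0.18. CHS had an r of 0.857 (exact permutation p = 0.0292, adjusted 0.0389) and a rho of 0.829 (exact permutation p = 0.0583, adjusted 0.0667). F3'H had an r of 0.897 (exact permutation p = 0.0208, adjusted 0.0333) and a rho of 0.943 (exact permutation p = 0.0167, adjusted 0.0333), but r was 0.55 without the 2 libraries, so that its relation rests on them. CHI, with an r of 0.65 (exact permutation p = 0.129, adjusted 0.132) and a rho of 0.829 (exact permutation p = 0.0583, adjusted 0.0667), and FLS1, with an r of 0.665 (exact permutation p = 0.132, adjusted 0.132) and a rho of 0.714 (exact permutation p = 0.136, adjusted 0.136), did not pass.

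**Figure D2:**
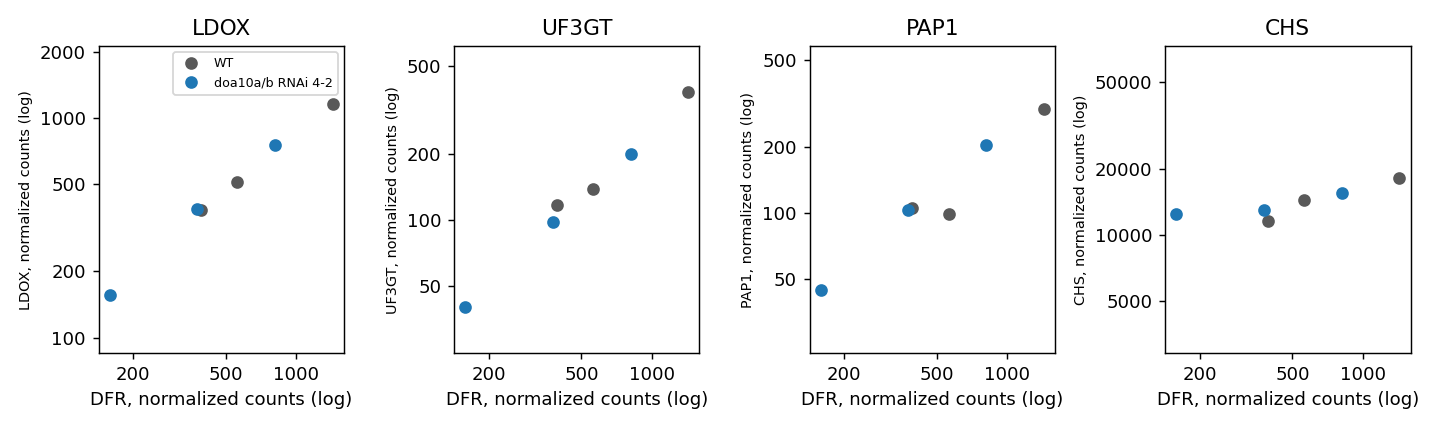
Normalized counts of LDOX, UF3GT, PAP1 and CHS against those of DFR in the 3 WT (grey) and 3 doa10a/b RNAi 4-2 libraries (blue), with log axes that cover the same fold range in the 4 panels on the vertical axis. LDOX and UF3GT climb with DFR over the whole range, while CHS lies almost flat between 11637 and 18142.

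Among 14942 transcripts with a mean of at least 100 over these 6 libraries, the transcripts whose centred log2 profile lay nearest to that of DFR were UF3GT, at a Euclidean distance of 0.231, LDOX at 0.279 and 5MAT, an anthocyanin malonyltransferase, at 0.314. PAP1 at 0.613 and UGT75C1 (AT4G14090), which glucosylates anthocyanins at the 5 position, at 0.645 followed, then DIN2, a beta-glucosidase gene induced in the dark, at 0.852 and TT19 (GSTF12), required for moving anthocyanins to the vacuole, at 0.866. This search was added after the spread of the late genes had been seen. For CHS, the 5 nearest of 14477 transcripts over the 4 line means were AT5G35160, AAE3, AtATG18a, AT1G48490 and GSTU18, at distances of 0.00415 to 0.0138, and no gene of flavonoid synthesis was among them. CHS barely moved over these 4 means, which carry no error, so the 5 names cannot show which genes vary with it.

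In the RNAi line, compared with WT, the late genes had lower means but no member passed the test. DFR, LDOX and UF3GT were 1.77, 1.57 and 1.89-fold lower by their means, PAP1 was 1.43-fold and F3'H 1.45-fold lower, CHS was 1.07-fold lower, and CHI and FLS1 lay within 1.02-fold of WT. The 3 late genes were thus the members beyond 1.5-fold lower among 9 with reads, where 2.34% of all transcripts with a mean of at least 10 were, and no member was beyond 1.5-fold higher, against 1.48% of all. By limma on log2 values of the libraries, with Benjamini-Hochberg adjustment over 19921 transcripts, the difference was -0.90 ± 0.54 (SE) for DFR with an adjusted p of 0.443, -0.76 ± 0.50 for LDOX with 0.487, -0.98 ± 0.53 for UF3GT with 0.386 and -0.57 ± 0.50 for PAP1 with 0.627. F3'H gave -0.48 ± 0.20 with an adjusted p of 0.26, and the unadjusted p was 0.0368. The test called 1.13% of all transcripts higher and 1.15% lower, and 0 of the 9 members, of which only F3'H had an unadjusted p below 0.05. Without RNAi library A the difference of DFR was -0.30 and without WT library B it was -0.36, whereas without RNAi library C it was -1.48.

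Summed over DFR, LDOX and UF3GT, late transcripts came to 6.36%, 12% and 5.85% of the early sum of CHS, CHI, F3'H and FLS1 in WT libraries A, B and C. They came to 2.09%, 4.80% and 8.53% in the RNAi line. The means were 8.08% ± 3.43 (SD, n = 3) and 5.14% ± 3.23 (SD, n = 3), which did not differ beyond the spread of the libraries (2-sided exact permutation test, p = 0.4, where the smallest p possible is 0.1). The comparisons of amiNAA10 and of the line labelled naa20 with WT use these same WT libraries, which the study relates to the RNAi line, and not the Col-0 libraries of another series that it relates to these 2 lines. These comparisons, and that of the 2 lines with each other, cross tables that were normalized separately. A difference between series or batches and a difference between lines cannot be told apart in them, and log2 ratios were centred on the median transcript, which lay 0.21 above WT in amiNAA10 and 0.10 above WT in the line labelled naa20.

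In amiNAA10 the late genes fell, while F3'H, the 1 early gene that could be tested, did not pass. LDOX was at 187, 402 and 230 normalized counts in amiNAA10, which become 162, 348 and 199 on the scale of WT, so that all libraries lay below the 380 to 1151 of WT. By limma it fell by 1.43 ± 0.34 on the log2 scale, with an adjusted p of 0.00696. DFR was at 248, 621 and 292 normalized counts and UF3GT at 84.6, 158 and 65.2, and both overlapped with WT. DFR fell by 1.14 ± 0.40 with a limma adjusted p of 0.0447, and UF3GT fell by 1.14 ± 0.39 with 0.0413. The calls of DFR and UF3GT were lost when WT library A (adjusted p = 0.075 and 0.0532), WT library B (0.102 for both), amiNAA10 library A (0.185 and 0.132) or amiNAA10 library C (0.147 and 0.166) was left out. They were also lost with limma voom (0.0501 and 0.0528) and on values as deposited (0.0764 and 0.0714), and that of DFR with a minimum mean of 50 (0.0505), in all 7 of 11 alternatives for DFR and 6 of 11 for UF3GT. The call of LDOX held in all 11 alternatives, with adjusted p between 0.00232 and 0.0441, and its difference lay between -1.77 and -0.97.

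PAP1 was at 111, 121 and 97.8 normalized counts in amiNAA10, close together, and at 98.7 to 298 in WT. Its difference of -0.62 ± 0.32 did not pass, with a limma adjusted p of 0.157. F3'H was at 314, 291 and 329 normalized counts with a difference of -0.03 ± 0.18 and an adjusted p of 0.906. Of the members without library values, CHS had a centred log2 ratio of means of -0.02, CHI of 0.02, UGT78D2 of -0.24 and FLS1 of 0.44. Reads alone gave FLS1 a 95% interval of 0.40 to 0.47 (exact, counting error only), which does not hold the spread between libraries. By means, 4 of 9 members were beyond 1.5-fold lower (9.48% of all transcripts) and 0 higher (6.16% of all). By limma, 3 of 5 members tested were lower, where 17.4% of 13478 transcripts were, and 0 higher, where 13.3% were and 0 of the 5 had an unadjusted p below 0.05 in that direction.

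Library B of amiNAA10, the highest of its line for DFR, LDOX and UF3GT, also held seed storage transcripts. CRA1, encoding a 12S globulin, was at 412 normalized counts in it, at 13.2 and 0.959 in libraries A and C and at 5.84 or less in the other lines, and CRC was at 37.9 there and at 0 in amiNAA10 libraries A and C. SESA1 was at 0 throughout. The 3 seed markers summed to between 0.959 and 450 per amiNAA10 library and to between 1.01 and 1.81 in WT. Without this library DFR still differed by -1.55 and UF3GT by -1.50 on the log2 scale. The 5 shoot markers summed to 394345 normalized counts in amiNAA10 and to 574981 in WT, and their part in the result was not tested.

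In the line labelled naa20 the late genes, F3'H and PAP1 were higher than in WT, while CHS was level. PAP1 was at 793, 806 and 1264 normalized counts, above every library of the other lines. It rose by 2.56 ± 0.32 on the log2 scale (limma adjusted p = 8.53e-05), and its ratio of means was 5.32-fold, which 0.203% of all transcripts exceeded. F3'H was at 731, 666 and 833 normalized counts, also without overlap, and rose by 1.32 ± 0.18 with a limma adjusted p of 0.000156. UF3GT was at 420, 405 and 672 and rose by 1.30 ± 0.33 with a limma adjusted p of 0.0122. On the scale of WT its lowest library was at 378, beside 382 in WT library B. The call of UF3GT was lost without WT library A (difference 1.1, adjusted p = 0.0624) and without library C of the line (1.07, adjusted p = 0.0637), and those of PAP1 and F3'H held in all 11 alternatives.

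DFR and LDOX had means of 1914 and 1625 normalized counts in the line labelled naa20, against 797 and 680 in WT, and no libraries to test. Their ratios of means were 2.24-fold and 2.23-fold, beside 2.19-fold for UF3GT. Both means lay above the highest WT library, 1438 for DFR and 1151 for LDOX, also after division by 1.07 to the scale of WT. CHS had a centred log2 ratio of 0.00, with a counting interval of -0.02 to 0.01, and CHI, FLS1 and UGT78D2 had 0.35, 0.37 and 0.39. By means, 5 of 9 members were beyond 1.5-fold higher (5.52% of all transcripts) and 0 lower (8.1% of all). By limma, 3 of 3 members tested were higher, where 11.1% of 15589 transcripts were, and 0 lower, where 14.3% were and 0 of the 3 had an unadjusted p below 0.05 in that direction.

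The 6 root markers, EXPA7, EXPA18, PRP3, COW1, RHD2 and CASP1, were all lower in the line labelled naa20 by limma, with adjusted p between 0.000203 and 0.0282. They summed to 1479 to 1788 normalized counts per library there, to 1937 to 2974 in WT and to 1758 to 2115 in the RNAi line. The 5 shoot markers summed to 499865 in the line labelled naa20. The part of these differences in the values of the flavonoid genes was not tested, and in whole seedlings fewer cells of a type and less RNA per cell cannot be told apart.

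Set against each other, the lines labelled naa20 and amiNAA10 differed more in PAP1 and the late genes than in the early genes. PAP1 was 9.31-fold, LDOX 6.38-fold, DFR 5.31-fold and UF3GT 5.21-fold higher in the line labelled naa20, F3'H was 2.56-fold and UGT78D2 1.53-fold higher, and CHS stood at 1.00-fold. By limma PAP1 differed by 3.18 ± 0.14 (adjusted p = 1.8e-11), UF3GT by 2.43 ± 0.23 (adjusted p = 1.73e-07) and F3'H by 1.35 ± 0.09 (adjusted p = 2.12e-09), in each case without overlap of the libraries and in all 11 alternatives. By means 6 of 9 members were beyond 1.5-fold higher, compared with 8.82% of all transcripts, and 0 lower, compared with 10.1%. By limma 3 of 3 members tested were higher, compared with 19.0% of 13510 transcripts, and 0 lower, compared with 20.1%, with 0 of the 3 at an unadjusted p below 0.05 in that direction.

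**Figure D3:**
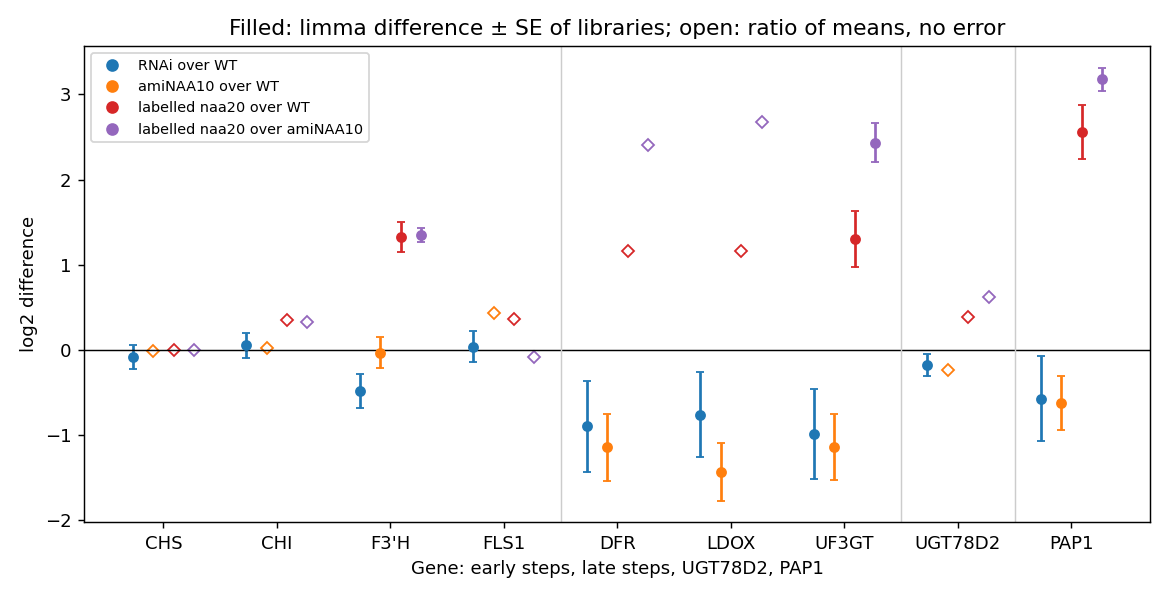
Log2 differences of the 9 genes with reads for the 4 comparisons; filled circles are limma differences with their SE from 3 libraries per line, and open diamonds are ratios of means with no error. From CHS to PAP1 the line labelled naa20 moves from 0.00 to 2.56 over WT, whereas amiNAA10 and the RNAi line lie below 0 for all late genes.

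The late and the early steps were then compared as groups of 3 and 4 genes. The median log2 ratio of the late genes minus that of the early genes was -0.77 in the RNAi line, -1.26 in amiNAA10, 0.80 in the line labelled naa20 and 2.24 for the line labelled naa20 over amiNAA10. The early genes ranged from -0.53 to 0.03 in the RNAi line and from -0.09 to 0.44 in amiNAA10, and the late genes from -0.92 to -0.65 and from -1.52 to -1.25, without overlap. In the line labelled naa20 F3'H, at 1.28, lay above all late genes, at 1.13 to 1.16. Late transcripts amounted to 8.60% of the early sum in WT, 5.37% in the RNAi line, 3.21% in amiNAA10 and 17.7% in the line labelled naa20. CHS made up most of the early sum in every line, with 14745 of 19628 normalized counts in WT. These shares, and those per library above, therefore set the late genes mostly against CHS. The genes of a group share libraries and are no replicates, so these medians carry no test.

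Other genes of the pathway were read from lists beside the members. Of 7 genes for the decoration and transport of anthocyanins, 5 were tested in the line labelled naa20 and all 5 were higher than in WT, compared with 11.1% of all transcripts. 5MAT was at 246, 257 and 405 normalized counts there and at 66.3 to 235 in WT, and rose by 1.23 (limma adjusted p = 0.0172). On the scale of WT, its lowest library in the line labelled naa20 lay below the 235 of WT library B. TT19 rose by 1.20, UGT75C1 by 1.07 and 3AT1, an anthocyanin coumaroyltransferase, by 0.71. In amiNAA10 3 of the 5 tested were lower, compared with 17.4% of all transcripts, 5MAT by -1.35, TT19 by -1.20 and UGT75C1 by -1.18 on the log2 scale (limma adjusted p between 0.00775 and 0.0143). In the RNAi line 0 of 7 passed limma, 1 of them, BGLU10, had an unadjusted p below 0.05, and 5MAT, the 1 gene beyond 1.5-fold, had a difference of -1.06 with an adjusted p of 0.333.

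Among the regulators that act with PAP1, TT8, the bHLH partner, was at 148, 123 and 240 normalized counts in the line labelled naa20 and at 44.4 to 93.8 in WT. It rose by 1.38 (limma adjusted p = 0.00315), PAP2, a close relative of PAP1, by 1.68 (adjusted p = 0.000143) and TTG2, a WRKY factor, by 0.65 (adjusted p = 0.0328), which makes 3 higher of 6 tested and 0 lower, compared with 11.1% and 14.3% of all transcripts. MYB113 and MYB114, the other relatives of PAP1, were at 1.02 normalized counts or less in every library. In amiNAA10 TT8 fell by 1.39 (limma adjusted p = 0.00524) and EGL3, another bHLH protein, fell by 0.96 (adjusted p = 0.000731), 2 lower of 5 tested, compared with 17.4% of all transcripts. In the RNAi line TT8 had a difference of -0.90 (limma adjusted p = 0.228) and TTG2 of -0.71 (adjusted p = 0.145), neither past the threshold. Of the flavonol regulators, MYB11 rose by 1.58 and MYB111 by 0.84 in the line labelled naa20 (limma adjusted p = 0.00117 and 0.000602), MYB12 did not pass, and none of the 3 passed in amiNAA10, where they lay between -0.37 and 0.34 by centred ratio of means. In the RNAi line MYB12 had a difference of -0.59, which missed the threshold with a limma adjusted p of 0.0628.

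The repressors of the pathway did not move as a block. MYBL2, a MYB that blocks the anthocyanin complex, was at 58.3, 75.2 and 85.9 normalized counts in the line labelled naa20 and at 191 to 286 in WT, and fell by 1.81 (limma adjusted p = 1.25e-05). In the RNAi line, set against the same WT libraries, it was 1.56-fold lower by its means. The limma difference of -0.62 missed the threshold there (adjusted p = 0.0711). MYBL2 was also lower in amiNAA10, where it fell by 0.83 (limma adjusted p = 0.0155). With it MYB7, MYB32, CPC and SPL9 were lower there (limma adjusted p between 0.00379 and 0.0413). This makes 5 lower and 0 higher of 6 repressors tested, compared with 17.4% and 13.3% of the transcripts tested. Repressors with a mean above 1000 in amiNAA10 could not be tested, so this count leaves out those that rose past it. By means, 4 of 13 repressors were beyond 1.5-fold higher, all with means above 1000 there, and 2 lower, compared with 6.16% and 9.48% of all transcripts. The F-box proteins KFB1, KFB20 and KFB50 direct phenylalanine ammonia-lyase, and KFB-CHS directs chalcone synthase, to degradation. All 4 were lower in the line labelled naa20, KFB50 by -1.53, KFB-CHS by -1.17, KFB1 by -1.13 and KFB20 by -0.63 (limma adjusted p between 1.65e-06 and 0.00889), so that 5 of 11 repressors tested were lower, compared with 14.3% of all transcripts, and 1, MYB4, higher, compared with 11.1%. In amiNAA10 KFB20 and KFB-CHS had means 3.43-fold and 2.11-fold above WT, untested, and KFB-CHS rose by 0.47 in the RNAi line (limma adjusted p = 0.0171), the only 1 of the 13 repressors that passed there. LBD39, a repressor that responds to nitrate, had a mean of 1477 normalized counts in amiNAA10 against 704 in WT, also untested. LBD37 had a mean of 3176 there against 1807 in WT, untested as well.

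**Figure D4:**
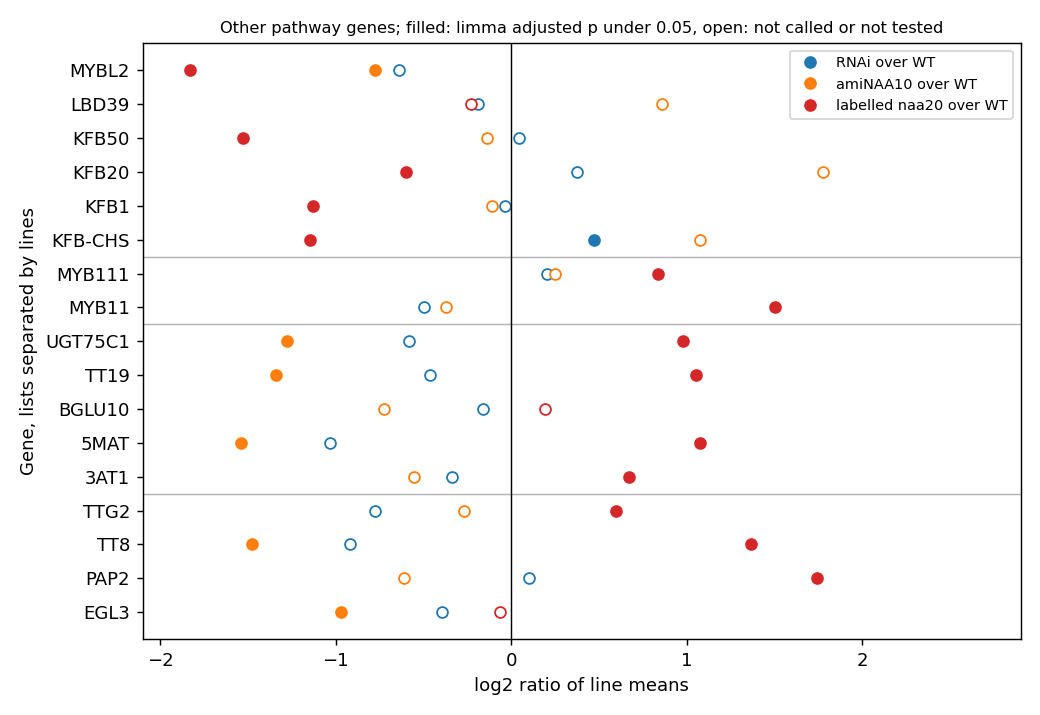
Log2 ratios of line means to WT for 17 other genes of the pathway, from the bottom anthocyanin regulators, decoration and transport genes, flavonol MYB factors and repressors; filled circles passed limma at an adjusted p under 0.05 and open circles did not or were not tested. Red points (line labelled naa20) lie to the right for most regulators and decoration genes and to the left for MYBL2 and the KFB genes, and all 3 comparisons share the WT libraries.

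Few genes of the steps before CHS and of the side branches were beyond 1.5-fold by their means. Of 9 genes for general phenylpropanoid steps, 0 were beyond it in the line labelled naa20. In amiNAA10 it was 1, 4CL1, with a log2 ratio of means of -0.66. Of all transcripts, 5.52% were higher and 8.1% lower in the line labelled naa20, and 6.16% and 9.48% in amiNAA10. Counts of 0 and 1 of 9 lie near these shares. PAL3 was higher by 0.48 and PAL4 lower by -0.34 in the line labelled naa20 (limma adjusted p = 0.0377 and 0.0273). In amiNAA10 PAL3 was higher by 0.53 and 4CL5 lower by -0.53 (limma adjusted p = 0.0215 and 0.00243), and 3 of the 9 genes were tested in each line. Thus 1 of 3 was called higher and 1 lower in each line. Of the transcripts tested, 11.1% were higher and 14.3% lower in the line labelled naa20, and 13.3% and 17.4% in amiNAA10. The light regulator HY5, a bZIP factor that binds flavonoid promoters, was higher by 0.40 in the line labelled naa20 (limma adjusted p = 0.0307). In amiNAA10 HY5 had a centred log2 ratio of means of 0.43, untested, and BBX22, another light regulator, was higher by 0.52 (limma adjusted p = 0.00554). BRT1, a sinapate glucosyltransferase, was the 1 gene of 10 in the sinapate and lignin branch beyond 1.5-fold in the line labelled naa20. It was at 3319 normalized counts there against 1633 in WT, and 1 of 10 lies near the share of all transcripts given above. In the line labelled naa20 the median log2 ratio was -0.02 for the general steps and 0.06 for the sinapate and lignin branch. It was 0.67 for decoration and transport and 0.00 for all transcripts. Among the paralogs of FLS1, FLS4 fell by 0.66 in amiNAA10 (limma adjusted p = 0.0155). None of the 5 genes in the list of flavonol decoration and CHIL, or of the 3 proanthocyanidin genes, with a mean of at least 10 was beyond 1.5-fold in any of the 4 comparisons. By limma, 1 of these 3 proanthocyanidin genes was higher in the line labelled naa20 than in WT (11.1% of transcripts tested) and than in amiNAA10 (19.0%). Likewise 1 of 3 FLS1 paralogs tested was lower there in both comparisons (14.3% and 20.1%).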

How the data were processed

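The members and gene lists were chosen with earlier results of these data known. The authors' deposited tables give mean normalized counts, signal values in which read counts were scaled by size factors and the 3 libraries of a line averaged. They also hold the authors' own fold changes, p-values and calls, which were not used. The 2 WT columns of the amiNAA10 and naa20 tables, the Col-0 controls that the study relates to these lines, belong to another series and were not used. The WT related to the RNAi line took their place. Alignment to TAIR10 with TopHat2 2.0.12 on Bowtie2 2.2.3, counting with HTSeq 0.6.1 and DESeq 1.18.0 are named in the submitters' processing notes, HISAT2 in the methods, so that the aligner is not settled.

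Each mean, printed with 15 digits (RNAi table) or 10 (amiNAA10 and naa20), is a sum of 3 whole counts, each times a fixed step, and was solved for these counts. Means up to 20000 or up to 1000 were searched, and only unique solutions were kept. Between 10 and 1000 these were 87.6% of 15450 transcripts for amiNAA10, 99.3% of 15674 for naa20 and 100.0% for the others. Size factors recomputed from the counts by the median ratio differed by at most 0.0669% in WT and the RNAi line. Simulated means gave no wrong unique solution. Transcripts with a mean above 1000 in amiNAA10 or naa20 were therefore not tested, a limit that removes high transcripts.

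A design without tests had been planned for means alone. After values per library were found, limma 3.58.1 (R 4.3.3, trended variance) was run on log2(normalized count + 1) of transcripts with a mean of at least 10, with calls at a Benjamini-Hochberg adjusted p under 0.05. Differences are on this scale, which understates those of low transcripts. In simulated RNAi data 92% of 200 transcripts changed by 2-fold were called. The simulated spread between libraries was below that of DFR, LDOX, UF3GT and PAP1, so this share does not hold for them. Ratios of means were called past 1.5-fold, with exact binomial intervals for counting error only. Comparisons across tables were centred on the median. The methods name biological triplicates of pooled seedlings. Whether these came from separate cultures is stated neither there nor in the labels, so p-values measure the spread between the 3 libraries of a line. Named genes are all members, the targeted genes, from each list up to 4 genes beyond 1.5-fold with a mean of at least 50, and the 5 profiles nearest to CHS; other genes named were chosen after their values were seen. RefSeq TAIR10.1 gave exon lengths, positions and promoters for all 10 members. Alternatives were other scalings, pseudocounts, minimum means, a 2-fold limit, limma voom and leaving out each library. All alternatives to the limma fit were chosen after seeing the data.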

Additional observations from a re-analysis of the deposited data

How the results depend on the processing

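No paired analysis was possible because the recovered libraries carry no replicate numbers. The late minus early medians kept their sign and moved by less than 0.1 with the pseudocount tried, which is small beside the counts of the members. A scaling shifts all log2 ratios alike and cancels in this difference, so the scalings could not test it. With a 2-fold limit 0 members were lower in the RNAi line, in place of 3. As deposited, without centring, 1 member, FLS1, was beyond 1.5-fold higher in amiNAA10. With limma voom, or as deposited, 1 member was called lower in amiNAA10 in place of 3, and leaving out single libraries gave 1 to 3. The cause was not tested. With a minimum mean of 50, 0.656% of all transcripts were beyond 1.5-fold higher and 1.08% lower in the RNAi line. With any mean above 0 these shares were 7.54% and 8.96% in the RNAi line, 12% and 15% in amiNAA10, 10.9% and 14.2% in the line labelled naa20, and 13.7% and 15.8% for the line labelled naa20 over amiNAA10. Leaving out single libraries gave 2 to 3 members called higher in the line labelled naa20 over WT, 3 over amiNAA10 and 0 in the RNAi line. No called difference of a member changed sign. Among differences that were not called, those of CHS, CHI and FLS1 in the RNAi line and of F3'H in amiNAA10 were below 0 in some limma alternatives and above 0 in others. Depth limits little for the members, whose lowest library value was 39.9 normalized counts apart from F3H.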
